A study of Mus musculus with 8 samples.

Results

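The NKR-P1 receptors and their Clr ligands are described here through 6 mouse genes, namely the receptor genes *Klrb1a*, *Klrb1b*, *Klrb1c* and *Klrb1f* and the ligand genes *Clec2d* and *Clec2i*. They were picked, with earlier results of these data known, from 14 genes with a *Klrb1* or *Clec2* family symbol. The count table holds 54838 gene identifiers. All 6 passed the filter on low counts, as did 13903 genes in all. The RNA was that of splenic natural killer (NK) cells, in 4 libraries from MMTV-PyMT mice (teNK) and 4 from wild-type FVB/n mice (hNK). MMTV-PyMT mice express the polyoma virus middle T antigen from the promoter of mouse mammary tumour virus (MMTV). The design text describes the donors of teNK cells as bearing tumours and those of hNK cells as healthy. Cells of both groups had been sorted as CD45+/CD49b+/CD3- and kept for 12 to 16 h in medium with cytokines, so neither group shows freshly isolated cells. The labels name neither the cytokines nor the background strain of the MMTV-PyMT mice, and they do not say whether replicates were separate animals, so p-values cover the spread among libraries only, and part of it may be technical. Technical replicate lanes are mentioned for teNK and not for hNK, so lane layout and group cannot be told apart.

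NKR-P1 receptors are C-type lectin-like proteins on NK cells, and the Clr proteins that some of them bind are C-type lectin-like as well. Receptors and ligands are encoded side by side in the NK gene complex. NKR-P1A, NKR-P1C and NKR-P1F (*Klrb1a*, *Klrb1c*, *Klrb1f*) belong to the activating class, which signals through adaptors with an immunoreceptor tyrosine-based activation motif. NKR-P1B (*Klrb1b*) carries an inhibitory tyrosine motif that recruits phosphatases. It binds Clr-b (*Clec2d*), a protein found on many healthy haematopoietic cells, and NKR-P1F binds Clr-g (*Clec2i*).

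The start regions of the 4 receptor genes are shown because these neighbouring relatives did not all change in the same direction. Each run holds the 250 bases before and the 50 bases after 1 start of the gene. Starts came from RefSeq on GRCm38.p6, and runs are read on the gene's own strand. In the GENCODE annotation, 2 transcripts of *Klrb1f*, 1 of *Klrb1a*, 2 of *Klrb1c* and 0 of *Klrb1b* begin with the bases at that start. GENCODE places the upstream ends of *Klrb1a* and *Klrb1c* beyond these windows, so not every annotated start was searched. The *Klrb1f* window (chr6:129045651-129045950) lies on the plus strand, and those of *Klrb1a* (chr6:128622885-128623184), *Klrb1c* (chr6:128788592-128788891) and *Klrb1b* (chr6:128826266-128826565) lie on the minus strand. Capitals mark matches, on either strand, to letters bound by ETS factors (AGGAAGT, which reads ACTTCCT on the other strand), RUNX factors (TGTGGT) or STAT factors (TTCNNNGAA). Letters for T-box factors (TCACACC) and AP-1 (TGANTCA) were searched too and are not in these 4 windows, and the windows of *Clec2d* and *Clec2i* hold no match to any of the 5.
Klrb1f: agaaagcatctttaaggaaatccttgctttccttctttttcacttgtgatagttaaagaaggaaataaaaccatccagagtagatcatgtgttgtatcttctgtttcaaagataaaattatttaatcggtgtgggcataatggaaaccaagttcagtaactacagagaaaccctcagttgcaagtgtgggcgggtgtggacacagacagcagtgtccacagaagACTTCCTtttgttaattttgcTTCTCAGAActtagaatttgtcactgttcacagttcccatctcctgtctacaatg
Klrb1a: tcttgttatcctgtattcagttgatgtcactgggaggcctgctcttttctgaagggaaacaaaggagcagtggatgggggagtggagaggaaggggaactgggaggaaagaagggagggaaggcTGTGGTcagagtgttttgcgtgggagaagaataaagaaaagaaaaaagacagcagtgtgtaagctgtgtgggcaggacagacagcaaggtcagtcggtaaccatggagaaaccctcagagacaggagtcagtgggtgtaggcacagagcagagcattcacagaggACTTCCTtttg
Klrb1c: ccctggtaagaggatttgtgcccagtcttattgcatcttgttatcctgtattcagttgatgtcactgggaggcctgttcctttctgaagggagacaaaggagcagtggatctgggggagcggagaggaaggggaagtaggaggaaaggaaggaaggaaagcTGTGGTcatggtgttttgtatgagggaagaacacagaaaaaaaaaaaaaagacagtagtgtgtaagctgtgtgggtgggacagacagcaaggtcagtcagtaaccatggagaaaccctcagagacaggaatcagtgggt
Klrb1b: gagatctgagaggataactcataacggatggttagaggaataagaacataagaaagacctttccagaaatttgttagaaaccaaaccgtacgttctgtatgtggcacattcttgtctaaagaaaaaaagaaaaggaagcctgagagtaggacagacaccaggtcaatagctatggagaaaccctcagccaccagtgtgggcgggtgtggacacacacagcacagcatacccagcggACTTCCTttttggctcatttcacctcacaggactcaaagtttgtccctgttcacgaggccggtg
The ETS letters occur in the windows of *Klrb1f* and *Klrb1a*, which rose, and of *Klrb1b*, which fell, and in 9.57% of 27025 gene windows of the same length. The *Klrb1c* run ends in a stretch that, in the *Klrb1a* run, comes before the ETS letters. The matching bases of *Klrb1c* were therefore not searched, and this offset also counts against identity in a global alignment. The RUNX letters occur in those of *Klrb1a* and *Klrb1c*, and in 16.9% of all windows. The STAT letters occur in that of *Klrb1f*, and in 8.47% of all windows. No 2 of the marked matches overlap. The windows of *Klrb1a* and *Klrb1c* were the most alike of the 4, at 69.4% identity in a global alignment, against 55.0% for *Klrb1b* and *Klrb1f*. These matches describe the reference letters of C57BL/6 mice and are not evidence of binding.

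In teNK cells *Klrb1f*, *Klrb1a* and *Klrb1c*, the activating receptor genes among the 6, rose 2.61-fold, 1.78-fold and 1.33-fold. The inhibitory receptor gene *Klrb1b* and the ligand genes *Clec2i* and *Clec2d* fell to 0.620, 0.647 and 0.786 times their hNK level. *Klrb1*, a low-level receptor gene outside the 6, fell too (log2 fold change -1.74, edgeR adjusted p = 1.60e-05). For each of the 6 genes, the 4 teNK libraries lay wholly above or wholly below the 4 hNK libraries. Thus 3 members were called higher and 3 lower (edgeR quasi-likelihood test, Benjamini-Hochberg adjusted p under 0.05 over all tested genes). Calls were common in this comparison: 51.9% of tested genes were called, 26.4% higher and 25.6% lower, and for 46.5% the teNK and hNK libraries were fully apart. With library totals in place of TMM scaling (trimmed mean of M values), 34.6% of calls were higher, against 50.7% with TMM, and the median log2 fold change of all genes was -0.15, against -0.02 with TMM. The 6 genes kept their directions and calls. In bulk RNA, fewer cells of a type and less RNA per cell cannot be told apart.

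**Figure D1:**
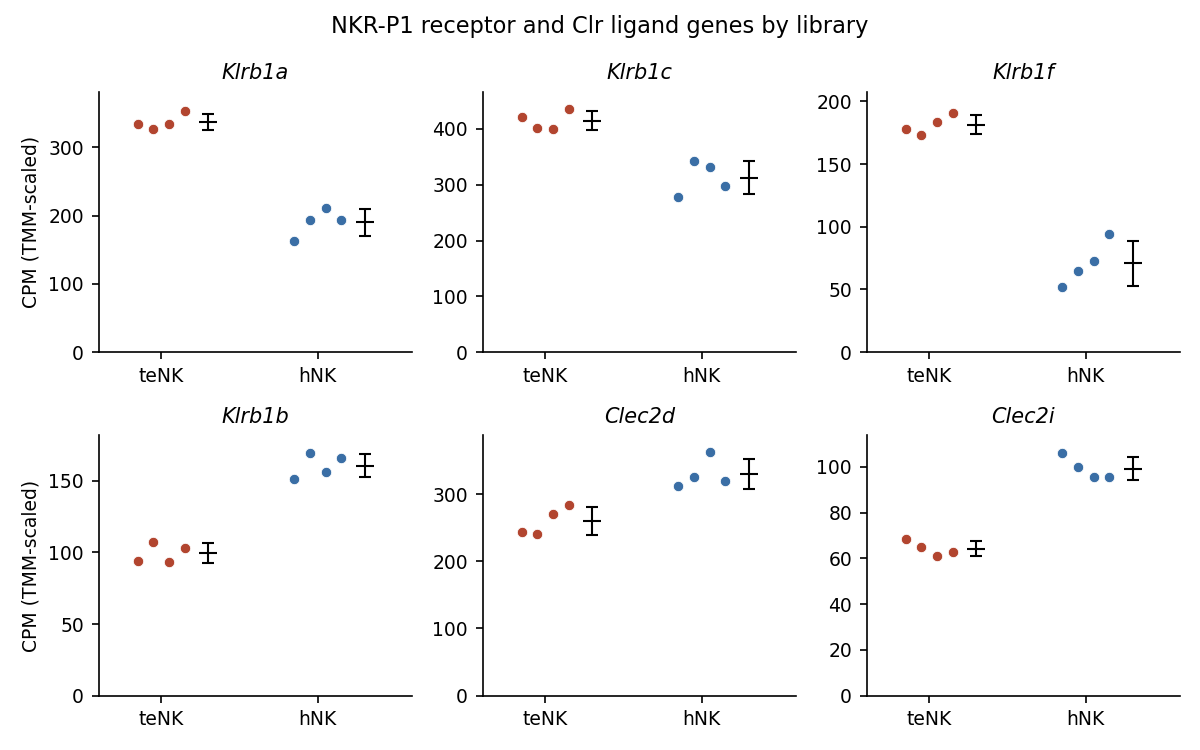
Each panel plots 1 gene as CPM (counts scaled to a common library size with TMM), with points for the 4 teNK and 4 hNK libraries and a bar for the mean ± SD. The teNK points lie above the hNK points for *Klrb1a*, *Klrb1c* and *Klrb1f* and below them for *Klrb1b*, *Clec2d* and *Clec2i*.

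*Klrb1f* (ENSMUSG00000030154, GRCm38 chromosome 6, 129045901 to 129057464) encodes an activating receptor for Clr-g. It had 178, 173, 184 and 191 CPM in teNK replicates 1 to 4 and 52.1, 64.6, 72.4 and 94.1 CPM in hNK replicates 1 to 4. The teNK libraries were close together and the hNK libraries spread more widely, with no overlap between groups. The means were 181 ± 7.50 CPM in teNK and 70.8 ± 17.6 CPM in hNK (SD, n = 4 each), a log2 fold change of 1.38 ± 0.12 (SE, edgeR adjusted p = 6.38e-08). A larger absolute log2 fold change was found for 8.39% of tested genes. Its coefficient of variation in hNK, 24.9%, was the highest of the 6 genes in either group.

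*Klrb1a* (ENSMUSG00000030361, chromosome 6, 128609227 to 128623533) encodes NKR-P1A, a receptor of the activating class. Its level was 334, 327, 334 and 353 CPM in the 4 teNK libraries, against 163, 194, 211 and 193 CPM in the 4 hNK libraries. The lowest teNK library exceeded the highest hNK library by more than the whole range of either group. The means were 337 ± 11.4 CPM in teNK and 190.2 ± 19.98 CPM in hNK, a log2 fold change of 0.83 ± 0.07 (edgeR adjusted p = 8.99e-08).

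*Klrb1c* (ENSMUSG00000030325, chromosome 6, 128778485 to 128789215) encodes NKR-P1C, which carries the NK1.1 antigen in C57BL/6 mice. It had 421, 402, 399 and 436 CPM in teNK and 278, 342, 332 and 298 CPM in hNK. The groups were apart, and the gap between the nearest libraries of teNK and hNK was smaller than the range within hNK. The means were 414 ± 17.3 CPM in teNK and 313 ± 29.7 CPM in hNK, a log2 fold change of 0.41 ± 0.07 (edgeR adjusted p = 0.000168). This was the smallest rise of the 3 activating receptor genes among the 6.

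*Klrb1b* (ENSMUSG00000079298, chromosome 6, 128813706 to 128826331) encodes the inhibitory receptor for Clr-b, also known as NKR-P1D in some strains. It had 94.2, 107, 93.2 and 103 CPM in teNK, against 151, 169, 157 and 166 CPM in hNK. Every teNK library was below every hNK library. The means were 99.5 ± 6.94 CPM in teNK and 161 ± 8.33 CPM in hNK, a log2 fold change of -0.69 ± 0.07 (edgeR adjusted p = 2.04e-07).

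The counts of *Klrb1b* and *Klrb1c* leave out part of each transcript. An annotated read-through gene, *Gm44511*, has 1012 exon bases, of which 599 are also *Klrb1b* exon and the other 413 *Klrb1c* exon, so it has no exon base of its own. It held 0 reads in all 8 libraries. Reads on those bases cannot be assigned to 1 gene, and the files hold such reads on a separate line for ambiguous reads. The bases affected were 26.9% of the *Klrb1b* exons and 13.9% of the *Klrb1c* exons, and no other member shared exon bases with another gene on either strand. Likeness between genes was a further limit. Of the 50-base words in their transcripts, 9.92% for *Klrb1a*, 5.77% for *Klrb1b* and 5.99% for *Klrb1c* also occur in a gene other than *Gm44511*, all of them *Klrb1* relatives, and none do for *Klrb1f*. The coding sequences of *Klrb1a* and *Klrb1b*, 81.3% identical and the closest pair of the 6 genes, belong to a gene that rose and a gene that fell. Reads of FVB/n mice were counted against the C57BL/6 reference, and if the MMTV-PyMT mice had another background, allele differences and the group cannot be told apart.

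*Clec2d* (ENSMUSG00000030157, chromosome 6, 129180615 to 129186534) encodes Clr-b, the ligand of NKR-P1B. It had 244, 240.2, 271 and 283 CPM in teNK and 312, 326, 363 and 319.8 CPM in hNK. The highest teNK library was below the lowest hNK library, and this gap was smaller than the range within either group. The means were 259.6 ± 20.8 CPM in teNK and 330.2 ± 22.4 CPM in hNK, the smallest change of the 6 genes (log2 fold change -0.35 ± 0.07, edgeR adjusted p = 0.000641), and 47.8% of tested genes had a larger absolute log2 fold change.

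*Clec2i* (ENSMUSG00000030365, chromosome 6, 128887588 to 128898167) encodes Clr-g, which NKR-P1F binds. It had 68.4, 65.1, 60.9 and 62.7 CPM in teNK and 106, 99.8, 95.5 and 95.6 CPM in hNK. Libraries of a group were close to each other, with coefficients of variation of 5.05% in teNK and 4.99% in hNK. The means were 64.3 ± 3.25 CPM in teNK and 99.2 ± 4.95 CPM in hNK, a log2 fold change of -0.63 ± 0.06 (edgeR adjusted p = 4.14e-07). The coding sequences of *Clec2d* and *Clec2i* are 73.0% identical, and 1.98% and 4.13% of their 50-base words occur in another gene.

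To compare levels between genes, CPM were divided by the kilobases of exon that no other gene on the strand shares. On this scale of CPM per kilobase the order in teNK was *Clec2d* (214 ± 17.2), *Klrb1a* (211 ± 7.12), *Klrb1c* (163 ± 6.79), *Klrb1f* (89.6 ± 3.70), *Klrb1b* (61.1 ± 4.26) and *Clec2i* (20.7 ± 1.04). The ranges of *Clec2d* and *Klrb1a* overlapped in teNK, and the other neighbours in that order did not overlap. In hNK the order was *Clec2d* (272 ± 18.4), *Klrb1c* (123 ± 11.7), *Klrb1a* (119 ± 12.5), *Klrb1b* (98.7 ± 5.11), *Klrb1f* (34.96 ± 8.71) and *Clec2i* (31.9 ± 1.59). There, *Klrb1c* overlapped *Klrb1a*, *Klrb1a* overlapped *Klrb1b*, and *Klrb1f* overlapped *Clec2i*. The places of *Klrb1f* and *Klrb1b* were thus exchanged between the groups, and in teNK every library had more *Klrb1f* than *Klrb1b* per kilobase. For a comparison with all tested genes, those outside the *Klrb1* and *Clec2* family were divided by their whole exon length. *Clec2d* then exceeded 98.9% of tested genes in teNK and 99.2% in hNK, and *Clec2i*, the lowest, exceeded 81.9% in teNK and 90.04% in hNK.

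Within the 4 receptor genes, the make-up of the transcripts was described as shares of length-scaled reads, which do not depend on library scaling. *Klrb1b* made up 11.1%, 12.8%, 11.1% and 11.5% in teNK, against 28.1%, 26.5%, 24.4% and 26.4% in hNK. The share of the inhibitory receptor was thus lower in each teNK library than in any hNK library. *Klrb1f* made up 17.1% ± 0.422 in teNK and 9.26% ± 1.92 in hNK, and *Klrb1a* 40.3% ± 0.364 in teNK and 31.7% ± 1.21 in hNK (SD, n = 4 each), and neither overlapped between groups. The share of *Klrb1c* was 31.0% ± 0.568 in teNK and 32.7% ± 1.72 in hNK, with overlapping libraries. Between the ligand genes, *Clec2d* held 91.1% ± 0.994 in teNK and 89.5% ± 0.975 in hNK, and the libraries overlapped. Shares of a whole move together by construction and show unequal change among the genes, not which of them changed.

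**Figure D2:**
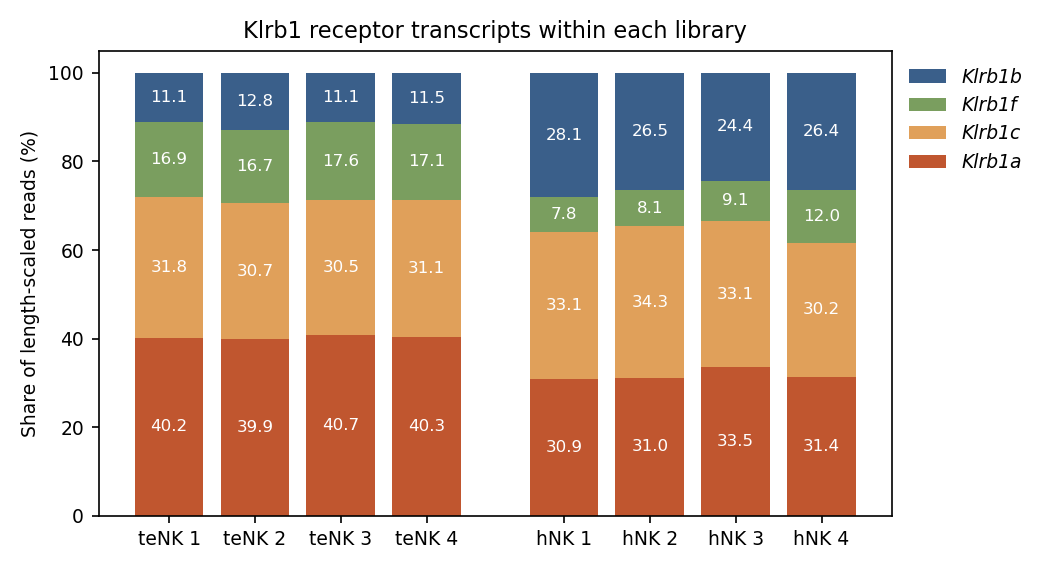
Stacked bars show, for each library, the percentage of length-scaled reads of the 4 receptor genes that fell to each gene, with teNK libraries on the left and hNK libraries on the right. The *Klrb1b* segment spans 11.1% to 12.8% in teNK and 24.4% to 28.1% in hNK.

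Receptor and ligand of a pair were also set against each other within each library. The ratio of *Klrb1f* to *Clec2i*, in reads per kilobase, was 3.99, 4.09, 4.63 and 4.67 in teNK and 0.756, 0.994, 1.16 and 1.51 in hNK. All teNK ratios were above all hNK ratios, and the geometric means, 4.33 in teNK and 1.07 in hNK, differed 4.04-fold (log2 difference 2.01). Because *Klrb1f* was fully apart upwards and *Clec2i* fully apart downwards, this ratio had to separate the groups, so its two-sided exact permutation p of 0.0286, the smallest that 4 against 4 libraries allow, adds nothing to the calls of the 2 genes. The ratio of *Klrb1b* to *Clec2d* was 0.288, 0.333, 0.256 and 0.272 in teNK and 0.361, 0.387, 0.321 and 0.387 in hNK. Here the groups overlapped, since teNK replicate 2 exceeded hNK replicate 3. The geometric means were 0.286 in teNK and 0.363 in hNK, a log2 difference of -0.34 that did not pass (exact permutation p = 0.0571). These 2 ratios were the only ones tested, and their p-values are unadjusted. Receptor genes outside the 6 did not enter them.

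**Figure D3:**
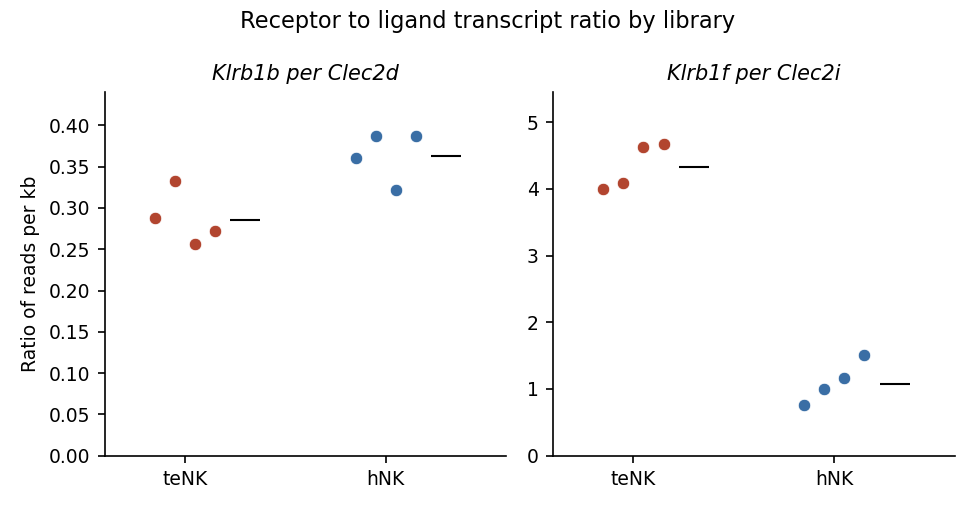
Points give the ratio of length-scaled reads of receptor to ligand in each teNK and hNK library, and bars the geometric mean of the group. *Klrb1f* per *Clec2i* spans 3.99 to 4.67 in teNK and 0.756 to 1.51 in hNK, while *Klrb1b* per *Clec2d* spans 0.256 to 0.333 in teNK and 0.321 to 0.387 in hNK.

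Of the 8 other annotated *Klrb1* and *Clec2* genes, 2 passed the filter on low counts. *Klrb1*, which encodes the receptor NKR-P1G, had 1.49 ± 0.482 CPM in teNK and 5.10 ± 1.02 CPM in hNK, a log2 fold change of -1.74 ± 0.24 (edgeR adjusted p = 1.60e-05). This low-level gene thus fell, on 83 reads in teNK and 175 in hNK. The receptor genes other than *Klrb1b* therefore did not all rise. *Klrb1-ps1*, a transcribed pseudogene, rose to 5.16 ± 0.765 CPM in teNK, against 2.94 ± 0.770 CPM in hNK (log2 fold change 0.76 ± 0.21, edgeR adjusted p = 0.00537), and it shares 50-base words with *Klrb1a* and *Klrb1c*. *Clec2h*, which encodes Clr-f, was not tested. It had 1 read in all teNK libraries and 25 in all hNK libraries, a teNK over hNK ratio of 0.0235 (95% Clopper-Pearson interval 0.000573 to 0.144, conditional on the total, scaled by library totals and covering counting error only). *Clec2g* had 4 reads in teNK and 6 in hNK, *Clec2f* 5 and 5, *Clec2l* 4 and 2, and *Clec2j* 1 and 0, with no direction readable at this depth. *Clec2e*, which encodes Clr-a, had no read in any library, where a floor of 3 counts corresponds to 0.190 to 0.241 CPM in teNK and 0.238 to 0.542 CPM in hNK.

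Most of 17 signalling genes, listed as possible partners of NKR-P1 receptors, rose in teNK. The list was not limited to genes that serve these receptors alone. All 17 were tested: 13 were called higher, 0 lower and 4 were not called. Of all tested genes, 26.4% were called higher and 25.6% lower. The median log2 fold change was 0.63 in the list, against -0.02 over all tested genes. The count of higher genes in the list was 11 to 13 over the alternatives tried. The weakest of the 13, *Lat2* (0.16 ± 0.06, adjusted p = 0.0335), an adaptor, and *Vav1* (0.15 ± 0.06, adjusted p = 0.0464), a guanine nucleotide exchange factor, lost the edgeR call in 9 and 12 of 16 alternatives.

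Among adaptor chains, *Fcer1g*, the gamma chain through which NKR-P1C signals, did not pass, with 156 ± 16.96 CPM in teNK and 139 ± 18.95 CPM in hNK (log2 fold change 0.16 ± 0.09, edgeR adjusted p = 0.157; called higher without hNK replicate 2, at 0.24 with an adjusted p of 0.0458). *Tyrobp* (DAP12) rose to 458 ± 33.9 CPM in teNK, against 192 ± 20.99 CPM in hNK. *Cd247* (CD3 zeta) and *Hcst* (DAP10) rose by 0.78 ± 0.07 and 0.76 ± 0.08 on the log2 scale. Thus 3 of the 4 adaptor chains were called higher, and the difference between *Fcer1g* and the other chains was not tested.

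Among kinases, *Lck*, which binds the cytoplasmic tail of NKR-P1 receptors, rose to 479 ± 32.4 CPM in teNK, against 229 ± 32.3 CPM in hNK. *Syk* and *Zap70*, which bind phosphorylated activation motifs, rose by 0.97 ± 0.06 and 1.07 ± 0.08 on the log2 scale, and *Fyn*, a kinase related to *Lck*, by 0.63 ± 0.06. Further along, *Plcg2* (phospholipase C gamma 2) showed the largest rise of the list, to 206 ± 8.35 CPM in teNK, against 66.2 ± 6.09 CPM in hNK (log2 fold change 1.65 ± 0.07, edgeR adjusted p = 1.00e-11). *Plcg1* had 7.43 ± 0.949 CPM in teNK and 7.51 ± 1.30 CPM in hNK and was not called. The adaptor genes *Lat* and *Lcp2* (SLP-76) rose by 0.96 ± 0.12 and 0.45 ± 0.06.

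Among phosphatases of inhibitory signalling, 1 of 3 was called. *Ptpn6* (SHP-1), which NKR-P1B recruits, had 177 ± 14.9 CPM in teNK and 189 ± 16.2 CPM in hNK (log2 fold change -0.10 ± 0.08, edgeR adjusted p = 0.306; called lower, at -0.23 with an adjusted p of 0.0147, when library totals replaced TMM). *Inpp5d* (SHIP-1) did not pass either (0.08 ± 0.07, edgeR adjusted p = 0.337; -0.05 with library totals). *Ptpn11* (SHP-2) rose by 0.34 ± 0.06 (edgeR adjusted p = 0.000169).

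**Figure D4:**
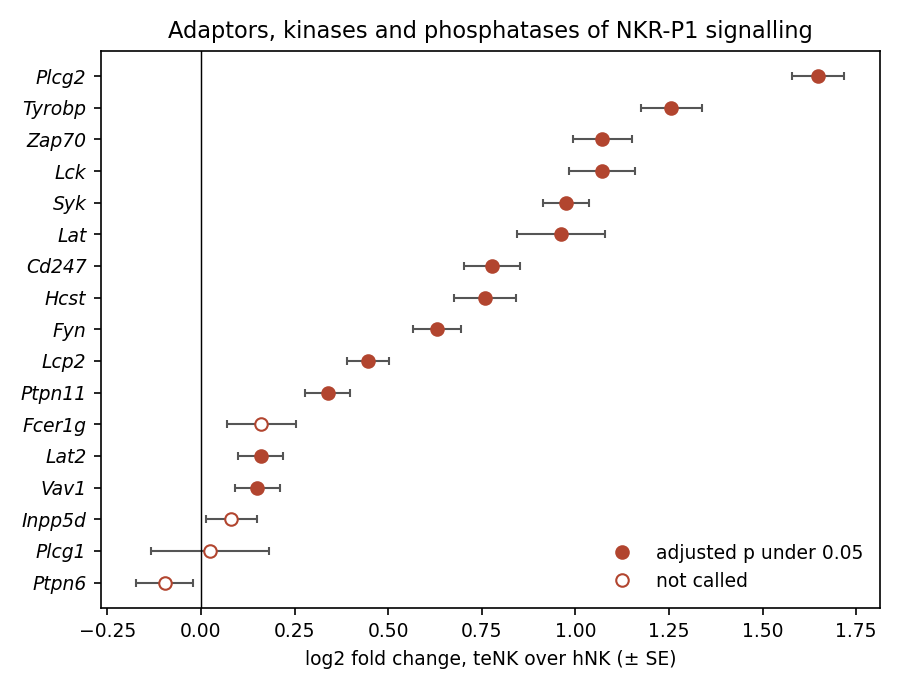
Points give the log2 fold change of teNK over hNK with its SE for 17 signalling genes listed as possible partners of NKR-P1 receptors, filled where the adjusted p was under 0.05. *Plcg2* lies farthest right at 1.65, and *Fcer1g*, *Inpp5d*, *Plcg1* and *Ptpn6* are the 4 open points near 0.

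The 6 genes lie within 1 stretch of chromosome 6 (GRCm38, 128609227 to 129186534) together with 30 other annotated genes. Of these 30, 11 had no read and 10 were tested. Of the 10, 5 were called higher and 2 lower, against 26.4% and 25.6% of all tested genes. Genes called higher and lower were interspersed: the called genes nearest to *Klrb1b* (lower) on its sides are *Klrb1c* and *Gm44067* (both higher). *Clec2i* (lower) overlaps, on the other strand and without a shared exon base, *BC035044*, a protein-coding gene that rose to 26.1 ± 2.90 CPM in teNK, against 15.4 ± 2.38 CPM in hNK. *BC064078*, a transcribed pseudogene near *Klrb1f*, rose to 22.05 ± 3.24 CPM in teNK, against 12.7 ± 1.85 CPM in hNK. *Gm15987*, annotated antisense to *Clec2g*, had the largest change of the tested genes in the stretch, at 7.47 ± 1.49 CPM in teNK and 1.10 ± 0.307 CPM in hNK (log2 fold change 2.67 ± 0.24, edgeR adjusted p = 8.67e-08). *Clec2g* shares no exon base with another gene on either strand. *Gm44067* rose by 0.71 ± 0.21 and *Gm5884*, a processed pseudogene, fell by 0.90 on the log2 scale, while *Gm44066*, *Gm26656* and *Gm44078* were not called, at -0.24 ± 0.15, -0.0099 ± 0.36 and 0.34 ± 0.30. *Gm44067* and *Gm26656* are annotated at the same bases on opposite strands, and each held reads of its own, 185 in teNK and 73 in hNK for *Gm44067* and 48 in teNK and 31 in hNK for *Gm26656*.

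**Figure D5:**
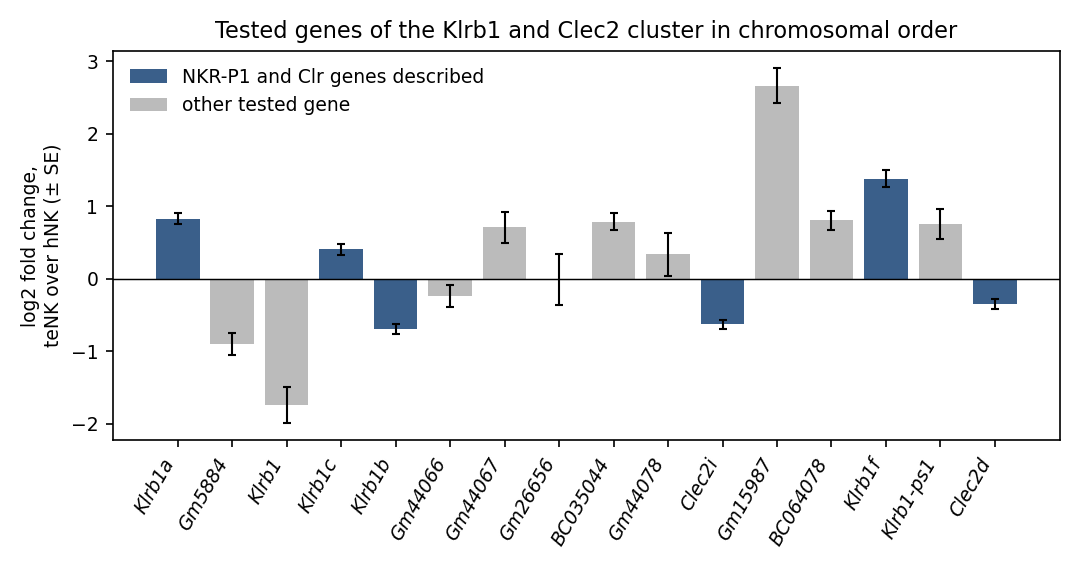
Bars give the log2 fold change of teNK over hNK, with its SE, for the tested genes between *Klrb1a* and *Clec2d* in their order along the chromosome and not to scale. *Klrb1a*, *Klrb1c* and *Klrb1f* stand above 0 and *Klrb1b*, *Clec2i* and *Clec2d* below it, with other genes of both directions between them.

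A chosen list of other lectin-like receptor genes on chromosome 6 left out the Ly49 (*Klra*) family. Of its 11 matched genes, the 10 tested were *Klrd1*, *Klrk1*, *Klrc1*, *Klrc2*, *Klrc3*, *Klre1*, *Klrg1*, *Klri1*, *Klri2* and *Cd69*. Of these, 8 were called higher and 1, *Klrc1* (NKG2A), lower, against 26.4% and 25.6% of all tested genes. Their median log2 fold change was 0.67, against -0.02 over all tested genes. *Klrd1* (CD94) had 1347 ± 23.2 CPM in teNK and 927 ± 100.2 CPM in hNK. *Klrg1* had the largest rise of the list (log2 fold change 3.91 ± 0.09) and lies apart from the others, at 122270596 to 122282882.

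Genes with the most similar profile were taken as those with the smallest root mean square difference of log2 CPM over the 8 libraries, after each gene's mean was removed, among 9360 tested genes with an average log2 CPM of at least 2, unnamed gene models and pseudogenes left out. For *Klrb1f* these were *Nsmce1* (0.07) and *Hist1h1b* (0.097), for *Klrb1a* *Sept11* (0.04) and *Gimap5* (0.05), and for *Klrb1c* *Calm2* (0.04) and *Cul3* (0.04). For *Klrb1b* they were *Zxdc* (0.05) and *Sc5d* (0.06), for *Clec2d* *Chmp2a* (0.04) and *Ech1* (0.05), and for *Clec2i* *Anxa7* (0.04) and *Brd2* (0.05). Within the 6 genes the nearest pair was *Klrb1b* and *Clec2i*, at 0.11, and the farthest was *Klrb1b* and *Klrb1f*, at 1.06. No member was among the 2 nearest of another.

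Reads on genes were 13111043 to 16209895 in teNK and 5202131 to 12419324 in hNK, so hNK values carry more counting error. Sort genes were present, with *Ptprc* (CD45) at 5333 ± 115 CPM in teNK and 3567 ± 132 CPM in hNK and *Itga2* (CD49b) at 628 ± 10.4 CPM in teNK and 422 ± 16.3 CPM in hNK. Of the CD3 genes, *Cd3e* had 1.43 ± 0.540 CPM in teNK and 2.18 ± 1.46 CPM in hNK, and *Cd3g* 23.0 ± 2.95 CPM in teNK and 20.2 ± 8.46 CPM in hNK, neither called. *Cd3d* rose to 4.91 ± 0.527 CPM in teNK, against 2.25 ± 0.930 CPM in hNK (edgeR adjusted p = 0.000403). Beside the counts of marker genes that follow, 26.4% of all tested genes were called higher and 25.6% lower. Of 9 NK cell genes, 8 rose and 1, *Eomes*, fell. Of 13 platelet genes, 12 were tested and 11 rose, and the summed level was 249 to 405 CPM in teNK and 100.1 to 138 CPM in hNK. To this sum *Itgb3*, the tested platelet gene that was not called, gave 80.8 ± 8.86 CPM in teNK and 92.0 ± 14.6 CPM in hNK. *Gp1bb* had no read in hNK. Of 12 B cell genes, all tested, 11 rose, with a sum of 138 to 171 CPM in teNK and 88.3 to 129.9 CPM in hNK, to which *Ighm* gave 96.5 ± 6.99 CPM in teNK and 95.8 ± 17.8 CPM in hNK. Of 11 T cell genes, 7 were tested, 1 rose and 2 fell, with a sum of 259 to 275 CPM in teNK and 273 to 314 CPM in hNK. Most of it came from *Trbc1*, not called, at 217 ± 6.95 CPM in teNK and 236 ± 15.4 CPM in hNK. Myeloid genes, 1 tested and called higher of 11, summed to 7.43 to 16.1 CPM in teNK and 0.715 to 1.45 CPM in hNK, and 6 erythroid genes, none tested, to 1.77 to 6.54 CPM in teNK and at most 0.361 CPM in hNK. *Clec2d* fell while markers of B cells, platelets and myeloid cells were higher, and the part of these cells in the values of the 6 genes was not tested.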

How the data were processed

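The authors deposited raw counts, whole numbers of reads per Ensembl gene and 1 file per library, with no normalization (4 teNK and 4 hNK libraries). The submitters' processing notes name HISAT2 2.1.0, SAMtools, HTSeq and the build GRCm38, and stranded mRNA libraries per the labels' protocols. The 5 summary lines stayed out of library sizes and tests. Reads in no gene were 32.3% to 41.2% and ambiguous reads 1.52% to 2.07% of a library, and 0 reads stood on the line for several alignments, so their treatment cannot be seen. No 2 libraries held identical values.

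Symbols, positions and exons came from GENCODE M21, an annotation of GRCm38 (54809 identifiers matched, 29 not). Counts were filtered with filterByExpr, scaled with TMM and tested in edgeR 4.0.16 (R 4.3.3) with a quasi-likelihood F test of group, adjusted over 13903 genes. The SE is the log2 fold change over the square root of F. For profiles, a prior count of 2 entered log2 CPM, and for ratios 0.5 reads were added. Alternatives used DESeq2 1.42.0 size factors and Wald test, limma 3.58.1 with voom, other scalings and filters, a replicate block and each library left out. Scripts were tested on simulated counts.

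The 6 genes, the lists and the motifs were chosen with earlier results of these data known. Genes named beside them were the other *Klrb1* and *Clec2* genes, 17 signalling genes, tested neighbours, the 2 nearest profiles per gene and summaries of marker lists. Levels per kilobase of *Klrb1b* and *Klrb1c* used the exon length outside *Gm44511*. Annotation release and strand setting of the counting are not given in the sources used here.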

Additional observations from a re-analysis of the deposited data

How the results depend on the processing

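Each of the 6 genes kept its direction and its call in 16 of 16 alternatives (edgeR or limma or DESeq2 adjusted p at most 0.00455). The log2 fold change over the alternatives was 1.251 to 1.54 for *Klrb1f*, 0.70 to 0.88 for *Klrb1a*, 0.28 to 0.45 for *Klrb1c*, -0.82 to -0.66 for *Klrb1b*, -0.48 to -0.30 for *Clec2d* and -0.76 to -0.60 for *Clec2i*. Calls over all tested genes were 6604 to 7938. The ratio of *Klrb1f* to *Clec2i* had a log2 difference of 1.85 to 2.18 with a library left out, where 0.0571 is the smallest exact permutation p that 3 against 4 libraries allow. With library totals the log2 fold change of *Inpp5d* was -0.049 and that of *Plcg1* -0.11, and with upper-quartile factors that of *Plcg1* was -0.010. *Plcg1* ranged over -0.061 to 0.11 with a library left out. *Gm26656* had 0.00074 with DESeq2 size factors, 0.0049 with the DESeq2 Wald test, 0.014 with limma and voom, and -0.27 to 0.21 with a library left out. None of these reversed values was called, and their cause was not tested. Signalling genes and neighbours were put through these alternatives after the data were seen.

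Samples share replicate numbers, but the deviations of libraries with the same number correlated at only 0.045, -0.107, 0.145 and 0.018. Not every library correlated best with its own number, so no pairing by number was seen. Such correlations cannot show that there was none. With a replicate block, 6982 genes were called (3581 higher, 3401 lower), against 7222 without it, and all 6 genes kept their calls. For *Klrb1f* to *Clec2i* the block gave a log2 difference of 2.01 with an exact permutation p of 0.125, the smallest that 4 pairs allow. The lower depth of hNK replicates 3 and 4 limits what can be read from *Clec2* genes with few reads.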
